A study of Mus musculus with 6 samples.

Results

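Netrins, the netrin-G ligand Lrrc4c and the receptors of netrins were compared between 2 groups of cultured bone marrow stromal cells (BMSC). The genes were Ntn1, Ntn4, Ntng1, Ntng2, Lrrc4c, Unc5a, Unc5b, Unc5c, Dcc and Neo1, chosen by name with earlier results of these data known. All 10 were measured by 26 probe sets that are annotated to 1 gene symbol, out of 18193 such genes on the array. iLarge T BMSC are cells recovered from the infarcted hemisphere of male C57Bl/6J mice aged 6 to 8 weeks, in which the middle cerebral artery had been occluded. The cells had been injected into a vein 24 h after the stroke, were released with collagenase 14 days after the injection and were cultured again at 33°C. Naïve Large T BMSC are the parent cells, which were never injected. Cells of both groups came from H-2Kb-tsA58 mice (a CBA/ca × C57Bl/10 hybrid), and therefore share the SV40 large T antigen, here in a temperature-sensitive form that drives division at 33°C, and all were passaged 3 times. Each group has 3 arrays, numbered 2, 4 and 6 for iLarge T BMSC and 1, 3 and 5 for naïve Large T BMSC, and each array holds RNA pooled from 3 hemispheres or from 3 sets of naïve cells. The cells had been regrown in culture before RNA was taken, so the values describe cultures and not cells in the brain, and only recovered cells that grew at 33°C are represented.

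Netrins are laminin-like proteins that steer growing axons. Ntn1 and Ntn4 encode secreted netrins. The Ntn1 protein attracts axons through DCC and the related receptor neogenin (Neo1). It repels them through receptors of the UNC5 family, which act alone or together with DCC. Netrin-Gs (Ntng1 and Ntng2) are held in the neuronal membrane by a lipid anchor and do not bind DCC or UNC5. Netrin-G1 binds a leucine-rich repeat protein of synapses, the netrin-G1 ligand that Lrrc4c encodes. Outside the nervous system netrins and UNC5 receptors are known from blood vessels, epithelia and bone marrow stroma, and DCC and the UNC5 proteins can trigger cell death when no ligand is bound.

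The results turn on Lrrc4c and Unc5c, both higher in iLarge T BMSC, and on Unc5b, which was bright on all 6 arrays and whose signals overlapped between the groups. Their promoters are shown to compare their CpG dinucleotides, at which mammalian DNA is methylated. They run from 250 bases before to 50 bases after the start of the gene in RefSeq (build GRCm38.p6), 5′ to 3′ on the strand of the gene, with CpG in capitals. The Lrrc4c promoter is at chr2:96317919-96318218 on the plus strand, the Unc5c promoter at chr3:141465314-141465613 on the plus strand and the Unc5b promoter at chr10:60831532-60831831 on the minus strand.
Lrrc4c: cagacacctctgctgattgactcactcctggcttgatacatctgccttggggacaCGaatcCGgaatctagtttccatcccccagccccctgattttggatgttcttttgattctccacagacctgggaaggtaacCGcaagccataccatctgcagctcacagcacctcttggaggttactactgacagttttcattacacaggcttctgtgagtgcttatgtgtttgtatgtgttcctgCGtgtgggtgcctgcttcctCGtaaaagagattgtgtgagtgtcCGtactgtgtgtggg
Unc5c: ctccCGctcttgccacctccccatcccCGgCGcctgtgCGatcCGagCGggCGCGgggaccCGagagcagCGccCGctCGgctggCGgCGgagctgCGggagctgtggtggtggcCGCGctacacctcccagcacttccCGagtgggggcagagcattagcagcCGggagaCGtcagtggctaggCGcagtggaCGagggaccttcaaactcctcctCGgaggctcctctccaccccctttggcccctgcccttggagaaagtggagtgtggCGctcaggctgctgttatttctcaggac
Unc5b: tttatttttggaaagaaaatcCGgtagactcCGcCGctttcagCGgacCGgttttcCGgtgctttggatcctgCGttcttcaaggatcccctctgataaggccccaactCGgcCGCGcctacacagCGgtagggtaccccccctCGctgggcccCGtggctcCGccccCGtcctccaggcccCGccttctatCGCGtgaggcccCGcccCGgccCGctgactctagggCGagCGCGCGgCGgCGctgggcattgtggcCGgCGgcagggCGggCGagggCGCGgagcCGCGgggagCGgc
The Lrrc4c promoter holds 6 CpG, and 52.1% of the 32851 promoters in the table hold more. The Unc5c promoter holds 24 and the Unc5b promoter 36, more than 80.0% and 93.8% of all promoters. Among the 8 genes of the family whose promoters were examined, Ntng2 also holds 6 CpG, and Ntng1, Ntn4, Unc5a and Neo1 hold 28, 31, 37 and 54. Letters of a TATA box (TATAAA, either strand) are in none of the 8 and in 13.6% of all promoters. Those of a GC box (GGGCGG, either strand) are in Ntn4, Ntng1, Unc5a, Unc5b and Neo1, not in Lrrc4c, Unc5c or Ntng2, and in 35.7% of all promoters. These letters describe the sequence and were not tested against the signals. The table has 1 start for each of these genes, which may not be the start used in these cells.

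Signals are MAS5 intensities on a linear scale, and each array has the same trimmed mean. Changes are log2 fold changes of iLarge T over naïve cells, so that a positive value means higher in iLarge T, and their standard errors (SE) come from limma, in which all 45037 probe sets inform the variance of each. A gene was called at an adjusted p under 0.05 and at least 2-fold, at the probe set that was brightest by mean log2 signal. Detection calls were not used here, and a signal under the 40th percentile of its array (183 to 299.6) was taken as near background. Of the 10 genes, 4 (Ntn4, Unc5b, Unc5c and Neo1) were above this limit on all 6 arrays. Log2 signals correlated at 0.845 to 0.863 among the iLarge T arrays, at 0.829 to 0.892 among the naïve arrays and at 0.789 to 0.824 between groups. Naïve replicate 1 gave the lowest of the correlations among naïve arrays. Since RNA was pooled, the p-values rest on the variation among 3 pools a group, and this number limits the precision.

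Of the 10 genes, 2 rose in iLarge T BMSC, Lrrc4c and Unc5c, none fell, and 8 were not called. Among all 18193 genes, 3.54% were called higher and 3.26% lower. At an unadjusted p under 0.05, 2 of the 10 genes passed, Lrrc4c and Unc5c, and 4011 of all 18193, so that the share of the 10 lay near that of all genes. The arrays of the groups did not overlap for these 2 genes, higher in iLarge T, and for none that was lower, whereas 14.5% of all genes were higher and 13.1% lower without overlap. The median log2 fold change of the 10 genes was 0.41, against 0.06 for all genes. Counted by probe set, 4 of 26 were called higher and none lower, against 2.47% called higher and 2.27% called lower among all probe sets. Since the 10 genes were chosen with earlier results of these data known, these shares and medians only describe the list.

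**Figure D1:**
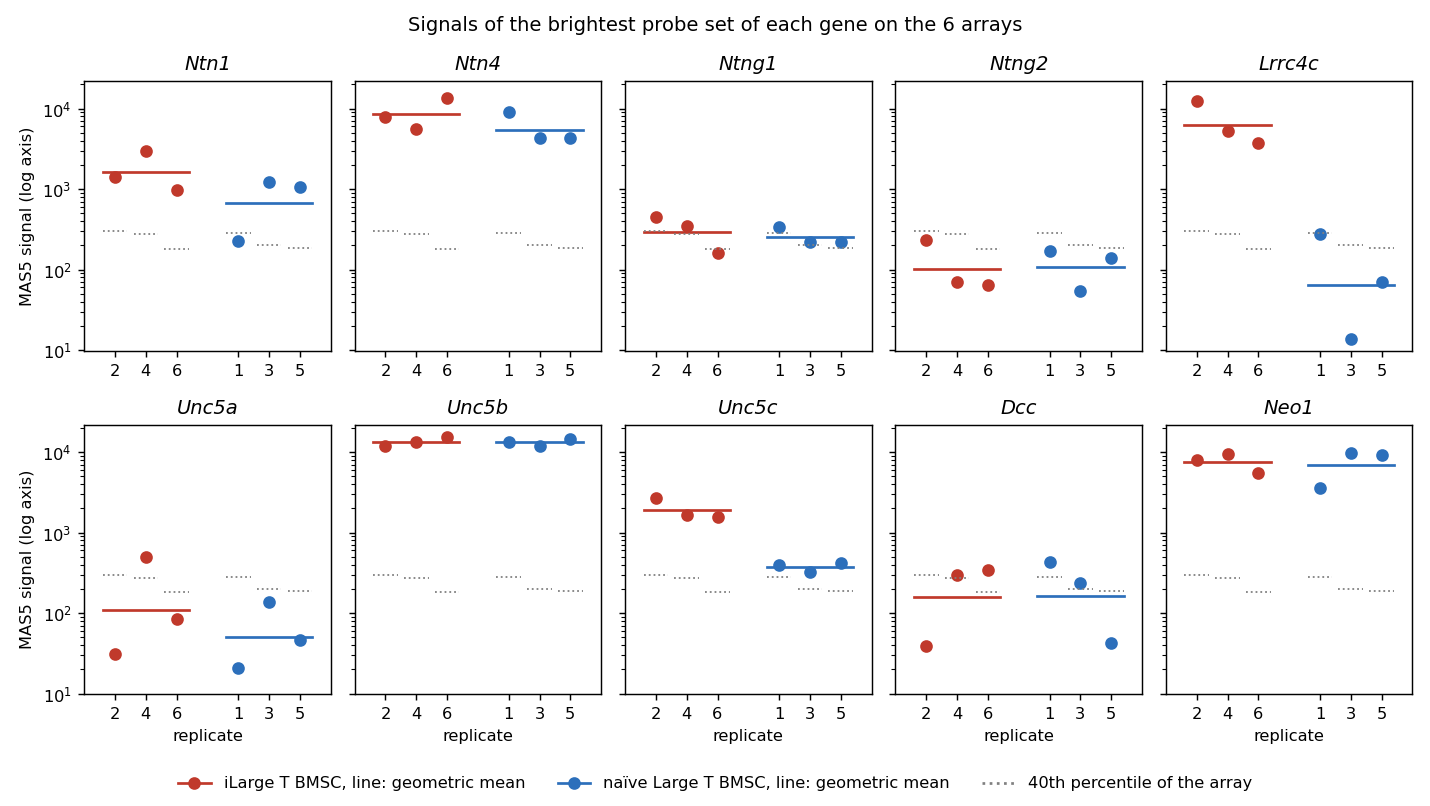
Signals of the brightest probe set of each of the 10 genes on a log axis, with iLarge T replicates 2, 4 and 6 left of naïve replicates 1, 3 and 5. Solid lines are geometric means and dotted ticks the 40th percentile of each array. The groups are apart for Lrrc4c (3772 to 12379.6 in iLarge T, 13.8 to 278 in naïve cells) and for Unc5c (1577 to 2721 in iLarge T, 319.6 to 420.1 in naïve cells) and overlap for the other 8 genes.

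Lrrc4c, the netrin-G1 ligand, had signals of 12379.6, 5248 and 3772 on iLarge T replicates 2, 4 and 6, against 278, 13.8 and 70.2 on naïve replicates 1, 3 and 5. The lowest iLarge T signal lay far above the highest naïve one, and all 3 naïve signals were near background, with replicate 1 just under its limit of 282. The mean was 7133 ± 4603 in iLarge T and 121 ± 139 in naïve cells (SD, n = 3 each). The log2 fold change was 6.60 (SE 0.97, adjusted p = 0.00534), but a fitted fold against background has no firm size. Set against the 40th percentile of the naïve arrays, Lrrc4c was at least 28.6-fold higher in iLarge T BMSC. Leaving out each array in turn moved this bound between 20.4 (iLarge T replicate 2 left out) and 36.9 (iLarge T replicate 6 left out). The adjusted p stayed under 0.05 without any 1 array, at 0.000248 to 0.0440.

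The other Lrrc4c probe sets were dimmer. At the dimmest of the 3 the signals were 678, 584 and 479.9 on the iLarge T arrays, against 11.1, 91.7 and 3.97 on the naïve arrays, at least 2.63-fold higher (adjusted p = 0.0484). This second call was lost without naïve replicate 5 (adjusted p = 0.125) and without iLarge T replicate 2 (0.151), 4 (0.161) or 6 (0.135). At the other they were 1531, 373 and 454 on the iLarge T arrays, against 344, 13.3 and 8.88 on the naïve arrays. Here the groups did not overlap, though iLarge T replicate 4 lay close to naïve replicate 1, and the log2 fold change of 4.21 (SE 1.41, adjusted p = 0.141) was not called.

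Unc5c encodes an UNC5 receptor known for the repulsion of axons and for the placement of neurons in the cerebellum. Its signals were 2721, 1677 and 1577 on iLarge T replicates 2, 4 and 6, against 399, 319.6 and 420.1 on naïve replicates 1, 3 and 5. The groups did not overlap, and the naïve signals lay above the 40th percentile of their arrays, so the fold is measured on both sides. With means of 1992 ± 634 in iLarge T and 379.5 ± 53.0 in naïve cells (SD, n = 3 each), the log2 fold change was 2.36 (SE 0.43, adjusted p = 0.0140), or 5.12-fold. The call was lost without iLarge T replicate 2 (adjusted p = 0.0703) or 4 (0.0608) or naïve replicate 3 (0.0598), with log2 fold changes of 2.11, 2.46 and 2.24. The dimmer of its 2 probe sets, which is annotated to the same RefSeq transcript as the brighter, gave 2231, 663 and 1138 in iLarge T cells, against 28.5, 159 and 119 in naïve cells. These naïve signals were near background, and at this probe set Unc5c was at least 5.44-fold higher (adjusted p = 0.0322). That bound was 3.97 without iLarge T replicate 2 and 7.29 without replicate 4, and the call was lost without any iLarge T array (adjusted p = 0.0761 to 0.148), without naïve replicate 3 (0.0518) and without naïve replicate 5 (0.0604).

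Calls of both genes depended on how the spread was estimated. With limma without the intensity trend the adjusted p was 0.0796 for Lrrc4c and 0.0700 for Unc5c. The methods' t-test gave 0.155 and 0.0797 on log2 signals and 0.373 and 0.203 on linear signals. With these 3 settings, in that order, none of the 10 genes was called, while over the whole array they called 85 genes higher and 48 lower, 7 and 7, and 17 and 36, against 644 and 593 with the intensity trend.

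**Figure D2:**
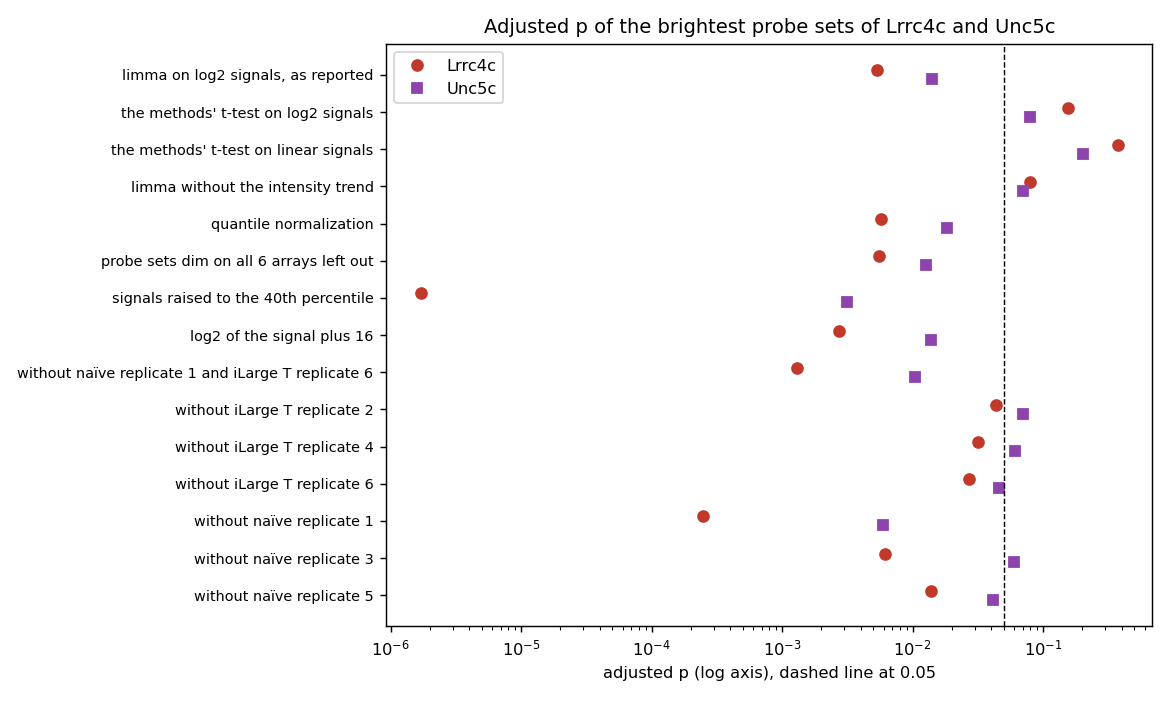
Adjusted p on a log axis for the brightest probe sets of Lrrc4c (circles) and Unc5c (squares) under limma on log2 signals and each alternative, with a dashed line at 0.05. Lrrc4c lies left of the line under 11 of the 14 alternatives and Unc5c under 8 of the 14.

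Unc5b, the UNC5 receptor of endothelial cells, was bright and flat. Its signals were 11770.6, 13413 and 15490.5 on the iLarge T arrays, against 13397, 11752.5 and 14739 on the naïve arrays, so that the ranges overlapped almost fully. The log2 fold change was 0.03 (SE 0.23, adjusted p = 0.976), with a 95% interval of -0.49 to 0.54 that leaves out a change of 2-fold. Its second probe set gave 0.21 (SE 0.29, adjusted p = 0.789). Within arrays, the log2 signal of Unc5c minus that of Unc5b averaged -2.80 ± 0.62 in iLarge T and -5.13 ± 0.07 in naïve cells (SD, n = 3 each), a difference of 2.33. An exact two-sided permutation test of this difference gave p = 0.100, the smallest that 3 against 3 arrays allow, and the pair was picked after the values were seen. With Unc5c apart between the groups and Unc5b flat, this outcome was given beforehand. The difference therefore restates the change of Unc5c and adds no evidence to it. Unc5a, an UNC5 receptor of neurons, was dim throughout, at 31.4, 495 and 85.5 in iLarge T and 20.8, 137 and 46.9 in naïve cells. One iLarge T array (replicate 4) was above background. The log2 fold change of 1.11 (SE 1.32, adjusted p = 0.749) has a 95% interval of -1.85 to 4.06, which holds sizeable changes in either direction.

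Dcc and Neo1, the receptors for attraction, did not pass the test. Neo1 was bright, at 8011, 9530.5 and 5494 in iLarge T and 3584, 9704 and 9209 in naïve cells, and naïve replicate 1 was the lowest of the 6 arrays. The log2 fold change was 0.13 (SE 0.40, adjusted p = 0.920, 95% interval -0.77 to 1.03). Its second probe set in brightness gave -0.13 (SE 0.48, adjusted p = 0.934), and the other 3 lay near background in part. The brightest Neo1 probe set is of a type that can match several transcripts, as its suffix in the array's naming marks. Dcc had signals of 39.4, 297 and 345 in iLarge T, against 428, 239 and 42.1 in naïve cells, scattered around background on both sides. Its log2 fold change was -0.03 (SE 1.22, adjusted p = 0.993), with a 95% interval of -2.75 to 2.69. The other Dcc probe sets were near background on all 6 arrays.

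The secreted netrins were measured in both groups and were not called. Ntn4, a netrin of basement membranes and vessels, had signals of 7957, 5618 and 13541 in iLarge T and 9029, 4323 and 4253 in naïve cells. The groups overlapped through naïve replicate 1, and the log2 fold change was 0.62 (SE 0.40, adjusted p = 0.486, 95% interval -0.27 to 1.51). Leaving out 1 array moved it between 0.28 (iLarge T replicate 6, adjusted p = 0.795) and 0.98 (naïve replicate 1, adjusted p = 0.111), with no call. The second Ntn4 probe set gave 0.61 (SE 0.61, adjusted p = 0.690). Ntn1, the netrin that guides commissural axons, had signals of 1426, 2996 and 984 in iLarge T, against 229.6, 1242 and 1047 in naïve cells. Naïve replicate 1 was low and the other naïve arrays lay between the iLarge T values, so the log2 fold change of 1.27 (SE 0.68, adjusted p = 0.386) was within the spread. It was 0.50 without naïve replicate 1. The second Ntn1 probe set gave 0.80 (SE 0.75, adjusted p = 0.667).

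The netrin-Gs, the binding partners of the Lrrc4c family, were dim. Ntng1, the partner of Lrrc4c, had signals of 445, 347 and 159 in iLarge T and 343, 218 and 219 in naïve cells, above the background limit on 5 of 6 arrays. Its log2 fold change was 0.19 (SE 0.73, adjusted p = 0.936), and its other 3 probe sets ranged from -0.90 to 0.08 with no call. Ntng2 was near background on all 6 arrays at both probe sets, at 230.3, 69.7 and 63.6 in iLarge T and 170.2, 54.2 and 137 in naïve cells at the brighter one. No direction can be given for it.

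**Figure D3:**
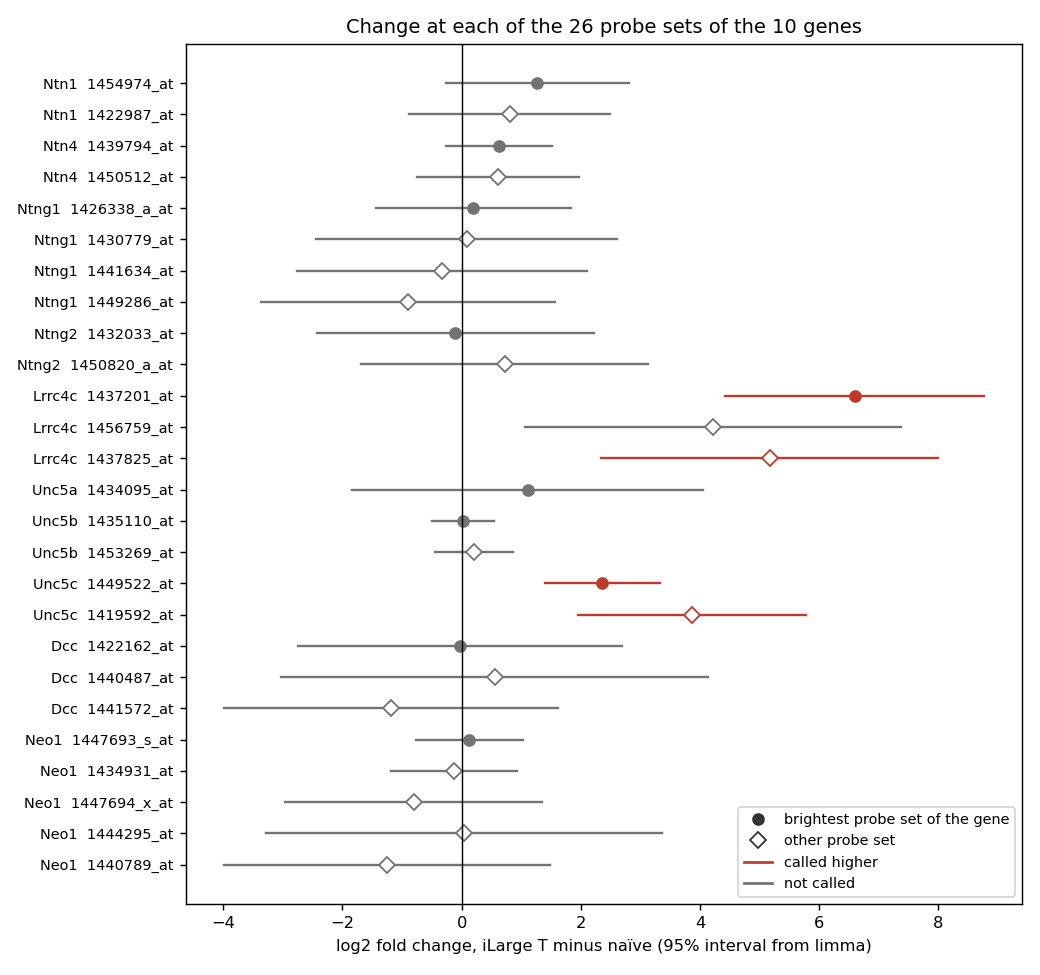
Log2 fold changes of iLarge T over naïve cells and their 95% intervals from limma at all 26 probe sets of the 10 genes. Filled circles are the brightest probe set of a gene, open diamonds the others, and red marks the 4 called higher. The 3 probe sets of Lrrc4c and the 2 of Unc5c have intervals above 0, and those of the other genes cross 0. At the first and the third probe set of Lrrc4c and the second of Unc5c the naïve side was near background, so the plotted size is not measured.

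Among genes with at least 1 group mean above the median, those whose log2 signals over the 6 arrays were most like Lrrc4c were Castor1 (r = 0.995), Lyrm1 (0.993) and Etfrf1 (0.993). Castor1 was itself called higher, with a log2 fold change of 2.14 (SE 0.35, adjusted p = 0.00827), whereas Lyrm1 and Etfrf1 were not called. Since the naïve signals of Lrrc4c were near background, their order has no firm meaning, and neither has this rank beyond the difference between the groups. Most like Unc5c were Zfp593 (r = 0.995), Tmem47 (0.994) and Ipo7 (0.991), of which Zfp593 and Tmem47 were called higher and Ipo7 was not. With 6 arrays in 2 groups such correlations are common: of 9959 genes compared, 258 exceeded 0.95 with Lrrc4c and 205 with Unc5c.

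Around this family, 51 of 58 listed ligands, receptors and effectors of netrin signaling had a probe set annotated to no other gene, and the other 7 are not analysed here. In iLarge T BMSC 2 of them rose and 1 fell, where 3.54% and 3.26% of all genes did, with a median log2 fold change of 0.03 against 0.06. The 2 that rose were Myo10 and Enah, both among the signal transducers. Myo10, a myosin that carries DCC to the tips of filopodia, had signals of 12008, 14126 and 14509.9 in iLarge T and 4081, 2748 and 4900.1 in naïve cells. The groups did not overlap, and the log2 fold change was 1.83 (SE 0.28, adjusted p = 0.00626). Of its 4 probe sets 3 were called, and the dimmest gave 1.19 (SE 0.42, adjusted p = 0.167). Enah, an actin-elongating protein of the Ena/VASP family, had signals of 18566, 12239 and 17189 in iLarge T, against 3824, 5189 and 6259.9 in naïve cells, a log2 fold change of 1.66 (SE 0.28, adjusted p = 0.00996). The other 5 Enah probe sets gave 0.99 to 3.44 and were not called (adjusted p = 0.0504 to 0.755), and 3 of them overlapped between the groups. Siah1a, a ubiquitin ligase that marks DCC for degradation, fell to 6138, 6599 and 4676 in iLarge T cells, against 13264, 11556 and 12378 in naïve cells (log2 fold change -1.11, SE 0.24, adjusted p = 0.0308). Its other probe sets were not called, at -0.88 (adjusted p = 0.120) without overlap and at -0.15 (adjusted p = 0.926) with overlap. With 1 array left out, 0 partners were called lower unless the array was naïve replicate 1 (5 lower, with 4 higher), and 1 was called higher without iLarge T replicate 6.

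None of the other 17 transducers of DCC and UNC5 signals was called. Among the bright ones were Rac1 and Cdc42, small GTPases of the actin cytoskeleton, with log2 fold changes of 0.03 (SE 0.24) and 0.21 (SE 0.23), and Ptpn11, a phosphatase that binds UNC5 receptors, with 0.37 (SE 0.32). Of the FLRT proteins, membrane ligands of UNC5 receptors, Flrt2 had 28494, 20179 and 13127 in iLarge T and 2657, 9666 and 7802 in naïve cells. These groups did not overlap, but the log2 fold change of 1.75 (SE 0.47, adjusted p = 0.0711) missed the threshold. Among netrin-binding integrin and laminin subunits, Itgb1, the common chain of many integrins, gave 0.77 (SE 0.24, adjusted p = 0.118), Itga6 1.38 (SE 0.48, adjusted p = 0.158) and Lamc1, a laminin chain bound by the Ntn4 protein, -0.36 (SE 0.35, adjusted p = 0.672). A second bright Itgb1 probe set gave 0.99 (SE 0.24, adjusted p = 0.0464) and was not called only because it fell just under 2-fold. The dimmer Itgb1 probe sets gave 0.57 to 3.33 with no call, the highest near background in both groups. Rgmb, a ligand of neogenin, gave 0.25 (SE 0.35, adjusted p = 0.797). Mcam, also described as a netrin receptor, ranged from 1926 to 15156 in iLarge T and from 133 to 10612 in naïve cells and was not called (adjusted p = 0.473). Ntn3, Ntn5, the netrin-G ligands Lrrc4 and Lrrc4b, and Unc5d, the remaining UNC5 gene, were dim, with group means of 44.5 to 329 and no call. Of the mediators of cell death by unbound receptors, Maged1 and Appl1 gave -0.04 (SE 0.27) and -0.34 (SE 0.31), and Adam10, a protease that cleaves DCC, gave -0.53 (SE 0.21, adjusted p = 0.230). Dimmer Adam10 probe sets gave -0.97 (adjusted p = 0.0784) and -0.99 (adjusted p = 0.0609), also not called, and the dimmest was near background in both groups. Adam10 was lower in iLarge T without overlap at all but that dimmest probe set.

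**Figure D4:**
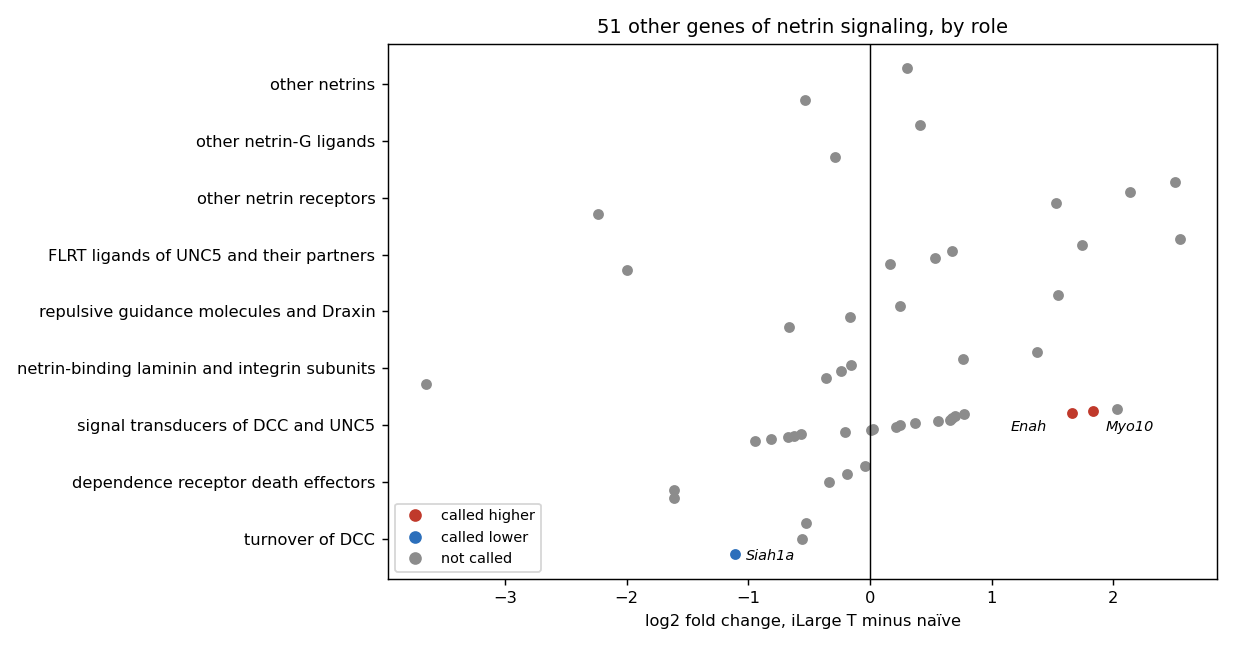
Log2 fold changes of iLarge T over naïve cells for 51 other genes of netrin signaling at their brightest probe set, in rows by role. Each point is a gene, red if called higher (Enah and Myo10), blue if called lower (Siah1a) and gray if not called. The gray points lie on both sides of 0.

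Stromal markers marked both groups. Their summed signal was 453332 to 661614 on the iLarge T arrays and 212309 to 410864 on the naïve arrays. It covers 8 of 9 genes, all but Ly6a, with Vim, Col1a1 and Cd44 bright on all 6 arrays. Of the 8, 7 had a positive log2 fold change, and Cd44 alone was called, higher in iLarge T. Nt5e went the other way, at 591, 1120 and 686 in iLarge T, against 1796, 1979 and 1775 in naïve cells. Its groups did not overlap, and it was not called (log2 fold change -1.27, adjusted p = 0.108). The lists of other cell types shifted as well, and in bulk RNA more cells of a type and more RNA per cell cannot be told apart. Mural markers (4 of 4 measured, 3 called higher) summed to 48859 to 84671 in iLarge T and 3199.8 to 4771 in naïve cells, and mesothelial markers (5 of 5, 4 called lower) to 1548 to 2301 in iLarge T and 120884 to 196399 in naïve cells. Both shifts run with the changes of Lrrc4c and Unc5c, and their part in them was not tested. Neuronal markers (5 of 5 measured, Tubb3 called higher) summed to 3123 to 6180.3 in iLarge T and 1526 to 3654 in naïve cells. Of these, Rbfox3, which defines mature neurons, had 471, 251 and 289 in iLarge T, against 405, 164 and 230.5 in naïve cells. Snap25, a protein of synaptic vesicle release, had 109, 336 and 207 in iLarge T, against 9.23, 44.4 and 34.5 in naïve cells, without overlap and not called (log2 fold change 3.02, adjusted p = 0.184). All 3 naïve signals and 1 iLarge T signal were near background, and the lower bound of the Snap25 fold was 0.90, so no rise is measured. Map2 gave -1.52 (adjusted p = 0.284) and Syp 0.27 (adjusted p = 0.919). Astrocyte markers (3 of 3) summed to 878 to 3790.3 in iLarge T and 199 to 519 in naïve cells, and oligodendrocyte markers (3 of 4) to 253 to 1414 in iLarge T and 897 to 1266 in naïve cells, with no call in either list and Mog near background on all 6 arrays. None of these markers had a signal of 0, but a signal above 0 does not show expression. Mog, near background throughout, had 4.03 on naïve replicate 5. Hematopoietic (5 of 6 measured, Csf1r called higher) and endothelial markers (5 of 5, Cdh5 called higher and Tek lower) summed to 5042 to 30776 and 3548 to 31190.5 in iLarge T, against 2659.5 to 11100.4 and 6466.5 to 9295 in naïve cells. Their high ends came from iLarge T replicate 6, with Ptprc at 4440.5, against 206 and 196 on replicates 2 and 4. The astrocyte high end came from it too, with Gfap at 3104, against 446 and 173. Cdh5, however, was 2211 and 2787 on replicates 2 and 4, against 27.5 to 210 in naïve cells. Csf1r was 3716 and 1892 there, against 330 to 883, while Tek went the other way, at 502 and 458, against 5703 to 9080. Cd68, the brightest hematopoietic marker on replicate 6, overlapped between the groups. It had 317, 1329 and 16962 in iLarge T, against 544, 9873 and 8396 in naïve cells (log2 fold change -0.88, SE 1.41, adjusted p = 0.822). The other 4 hematopoietic markers measured had positive log2 fold changes, of which Csf1r alone was called. The part of these markers in the changes of Lrrc4c and Unc5c was not tested, and leaving out replicate 6 does not take them away. Without that array the brightest probe sets stayed called, Lrrc4c at a log2 fold change of 6.96 (adjusted p = 0.0271) and Unc5c at 2.50 (adjusted p = 0.0459), and the second calls of both genes were lost (adjusted p = 0.135 for Lrrc4c and 0.119 for Unc5c). Without both that array and naïve replicate 1, a choice made after seeing the data, the brightest probe sets gave 8.01 (adjusted p = 0.00131) and 2.54 (adjusted p = 0.0105).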

How the data were processed

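Gene expression was measured on 6 Affymetrix mouse arrays, 3 of iLarge T and 3 of naïve Large T BMSC. The authors deposited the MAS5 intensity of every probe set, which is linear and was scaled by them to a common trimmed mean on each array. The settings of MAS5 are not given in the sources used here. MAS5 subtracts mismatch probes, which makes dim signals noisy on the log scale. Genes were named from GEO's platform annotation: of 45037 probe sets other than 64 controls, 34945 have 1 symbol, 932 several and 9160 none, and 34741 were found in RefSeq by identifier. Groups came from the sample titles. Log2 signals were tested in R 4.3.3 with limma 3.58.1 (eBayes with an intensity trend after lmFit), with Benjamini-Hochberg adjustment over all 45037 probe sets, and were tested on simulated data. Tables and figures were made with Python 3.11.15, pandas 2.3.3, numpy 2.4.6, scipy 1.17.1 and matplotlib 3.10.9. A lower bound sets the bright group's mean log2 signal against the dim group's signals raised to the 40th percentile of each array. The text names every member, the partners called, up to 3 bright partners a role with some dimmer ones, and the 3 genes most like a called member. The members, lists and tests were chosen with earlier results of these data known. As alternatives the test was exchanged (the methods' t-test on log2 or linear signals, limma without the trend), and arrays were quantile normalized or left out 1 at a time. Dim probe sets were dropped or raised to the 40th percentile, or 16 was added before log2. Genes were also read from their most variable probe set, which for Lrrc4c is the brightest one, or from the mean of all their probe sets. The fold threshold was also set to 1.5 or left out.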

Additional observations from a re-analysis of the deposited data

How the results depend on the processing

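Lrrc4c and Unc5c kept their direction under every alternative run. Their calls were lost with the methods' t-test on log2 signals (log2 fold changes of 6.60 and 2.36), on linear signals (5.89 and 2.39) and with limma without the intensity trend (6.60 and 2.36). With 1 array left out in turn, Lrrc4c ranged from 5.49 to 7.65 with its call kept, and Unc5c from 2.11 to 2.50 with its call lost 3 times. Under those 3 tests, 0 of the 10 genes were called higher (main 2), 0 of their probe sets (main 4), and 0 partners higher (2) or lower (1), while genes called over the array were 7 higher and 7 lower, 17 and 36, and 85 and 48, and probe sets 15 and 13, 33 and 67, and 186 and 109. Raising dim signals to the 40th percentile gave 4 partners higher and 3 lower, 971 genes and 1677 probe sets higher. The most variable probe set of each gene gave 1 partner higher and 2 lower. Leaving out together naïve replicate 1 (the lowest correlations among naïve arrays) and iLarge T replicate 6 (high hematopoietic and endothelial markers), a choice made after seeing the data, gave 4 partners higher and 5 lower, 1211 and 1321 genes, and 2189 and 2375 probe sets. With 1 array left out, the 10 genes had 1 to 2 called higher and 1 to 5 probe sets called, and partners 1 to 4 higher and 0 to 5 lower. Genes called ranged from 250 to 1298 higher and from 232 to 1214 lower, and probe sets from 422 to 2342 and from 367 to 2140. The highest counts came without naïve replicate 1. No gene of the 10 was called lower under any of these settings.

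Genes with a log2 fold change near 0 turned sign without being called. These were Ntng1 with the mean of its probe sets (-0.24), Neo1 with that mean (-0.40), Dcc with raised signals (0.23) and its most variable probe set (0.55), and Ntng2 on linear signals (0.0068), with raised signals (0.17), the mean (0.31) and the most variable probe set (0.72). Without both of those arrays Ntng2 was 0.55, Unc5b -0.067, Dcc 0.11 and Neo1 -0.11. With 1 array left out Ntng1 ranged from -0.11 to 0.63, Ntng2 from -0.70 to 0.23, Unc5b from -0.075 to 0.12, Dcc from -1.01 to 0.98 and Neo1 from -0.34 to 0.38. Ntng2 has no value without dim probe sets, since it was one of them. The cause of these shifts was not tested. No paired analysis was possible because the labels give no pairing and the groups share no array number. Signals near background limit what can be said of Ntng1, Ntng2, Unc5a and Dcc.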

Other observations

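Casp9, a caspase that acts in cell death by unbound netrin receptors, has 3 probe sets that moved down by unequal amounts. The brightest by mean log2 signal had signals of 848, 948 and 1260.2 in iLarge T, against 1569.7, 4309 and 4284 in naïve cells, and was not called (log2 fold change -1.61, SE 0.45, adjusted p = 0.0753). The second was called lower (-1.73, SE 0.42, adjusted p = 0.0456). The third had 66.5, 94.0 and 117 in iLarge T, near background, against 1766, 3306 and 3663 in naïve cells, at least 11.3-fold lower (adjusted p = 0.00157). The gene was singled out after its values were seen.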
